A study of Mus musculus with 6 samples.

Results

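The machinery of MHC class I antigen presentation was examined in primary mouse microglia (PM) through 10 genes, chosen by name for their role: H2-K1, H2-D1, B2m, Tap1, Tap2, Tapbp, Psmb8, Psmb9, Psmb10 and Nlrc5. All 10 were among the 24411 genes of the count tables. RNA was sequenced in 3 PM libraries that received GSK-J4 at 10 μM and in 3 that received LPS at 10 ng/ml together with the same dose of GSK-J4, each for 4-h. The brains of 12 ICR mice (an outbred stock), 3 days old, had been pooled into a mixed glial culture from which the PM were shaken off. GSK-J4 is an inhibitor of the histone H3 lysine 27 demethylase JMJD3, and LPS is the bacterial ligand of TLR4. Both groups carried GSK-J4, so the comparison asks how LPS changed class I presentation genes while the inhibitor was present, and it does not measure the inhibitor's own effect. Untreated PM, PM with LPS alone and BV-2 cells are not analysed here. The study describes the libraries of a group as biological replicates, while the labels do not say that they came from separate cultures, and p-values measure only the spread between these libraries.

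An MHC class I molecule is a heavy chain, in mice the classical H2-K and H2-D chains, held by β2-microglobulin and loaded with a short peptide. The peptides are cut by the proteasome, whose catalytic subunits are exchanged for inducible ones in the immunoproteasome, and are pumped into the endoplasmic reticulum by the transporter TAP, where tapasin bridges TAP to the waiting heavy chain. The coactivator NLRC5 binds class I promoters through an enhanceosome of RFX and NF-Y factors, and interferon is the classical inducer of the whole set. Microglia, the resident macrophages of the brain, are known to raise class I under inflammatory stimuli.

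With LPS + GSK-J4 compared with GSK-J4, none of the 10 genes passed the test in either direction, while the interferon gene Ifnb1, the interferon-inducible factor Irf1 and Nfkb1, which encodes an NF-κB subunit, rose in the same libraries. Genes were called where the adjusted p did not exceed 0.01 and the log2-fold change reached 1.5 or -1.5, by edgeR's quasi-likelihood test with Benjamini-Hochberg adjustment over the 10133 genes tested. By this rule 0 of 10 members were up-regulated, where 2.95% of all tested genes were, and 0 of 10 were down-regulated, where 0.809% were. Without the fold threshold the counts remained 0 and 0, beside 8.42% of all tested genes that were higher and 5.46% that were lower. The count of members with a p under 0.05 before adjustment was also 0, by edgeR and by the DESeq2 Wald test. For 5 members the fitted level was higher with LPS + GSK-J4 and for the other 5 lower, and the median log2-fold change was 0.01 over the members and -0.00064 over all genes tested. The ranges of the groups overlapped for all 10 members, where 19.8% of tested genes had every LPS + GSK-J4 library above every GSK-J4 library and 18.4% had every one below. A p that misses the threshold does not show that a gene was unaffected, and the 95% intervals given below mark how large a change these libraries leave possible.

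Between 2597505 and 3472716 fragments were counted on genes per library, and the 10 members together held 8995, 9426 and 5447 of them in the GSK-J4 libraries and 5149, 5024 and 4990 in the LPS + GSK-J4 libraries. The ribosomal precursor Rn45s took between 22.2% and 32.4% of counts with GSK-J4 and between 45.8% and 48.1% with LPS + GSK-J4, which left fewer counts for the members in the latter group. Levels are therefore given as CPM, counts scaled to a common library total, with TMM factors. The libraries numbered 3 in both groups stood apart from the others on the second principal component, at -15.2 and -28.3 against 2.86 to 20.4, and their part in the results is given by leaving them out. The markers of microglia summed to 4018 to 4204 CPM with GSK-J4 and 3337 to 3438 CPM with LPS + GSK-J4, and all 12 were tested, with Cx3cr1 and Csf1r lower past the adjusted p. Astrocyte markers summed to 53.9 to 59.4 CPM against 131 to 159 CPM, with 7 of 8 tested and Gfap, Aqp4 and Gja1 higher, and oligodendrocyte lineage markers summed to 182 to 212 CPM against 352 to 402 CPM, with 6 of 8 tested and Olig1, Cspg4 and Mbp higher. Fibroblast and endothelial markers summed to 91.4 to 298 CPM against 156 to 482 CPM, with 7 of 9 tested, Cdh5 higher and Cldn5 without a count. Lymphocyte and dendritic markers summed to 5.90 to 6.60 CPM against 6.25 to 8.01 CPM, with 2 of 8 tested, neither past the adjusted p, and Cd8a, Ms4a1 and Nkg7 without a count. The part of these shifts in the class I values was not tested, and in bulk RNA fewer cells of a type and less RNA per cell cannot be told apart.

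Promoter sequence is shown because genes of an NF-κB subunit and of a factor that binds interferon response elements rose in these libraries. RefSeq promoter windows of mm10 (GRCm38.p6), 250 bases before to 50 bases after each start, were found for 8 of the 10 members, in 9 windows. They were searched on both strands for the core of the interferon-stimulated response element (GAAA, 2 bases of any kind, GAAA), the κB site (GGG, 2 bases of any kind, TT, 1 of any kind, CC) and the core of the Y box bound by NF-Y (CCAAT). The exact letters of the response element core lay in the window of 1 of 8 members, B2m, and in 3.44% of all 32851 windows. Variants of these letters were not searched, so a window without them may still hold such an element. The κB letters lay in those of 3 of 8 members, H2-K1, H2-D1 and B2m, and in 4.79% of all windows, and CCAAT lay in those of 6 of 8 and in 37.4% of all windows. The B2m stretch runs from the window's upstream end to the annotated start of the gene (chr2:122147437-122147685, plus strand, mm10), with the response element core and the κB letters in capitals.
B2m promoter: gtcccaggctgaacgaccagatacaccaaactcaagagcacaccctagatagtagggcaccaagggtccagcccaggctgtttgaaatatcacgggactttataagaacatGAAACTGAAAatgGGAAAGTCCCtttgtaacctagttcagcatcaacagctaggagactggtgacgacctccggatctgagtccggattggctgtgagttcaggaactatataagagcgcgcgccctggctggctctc
The core begins at position -139 and the κB letters at -126 from the RefSeq start, the latter read on the minus strand. The 30 bases that begin with the κB letters, in capitals, are at chr17:34000429-34000458 (minus strand) for H2-K1 and at chr17:35262923-35262952 (plus strand) for H2-D1. Beside them is the same length of B2m at chr2:122147545-122147574, with the response element core and the κB letters in capitals. The B2m stretch begins shortly before that core and is not aligned to the heavy chain stretches. The H2-D1 stretch lies before the RefSeq start but within an exon of the longer GENCODE gene, whereas the H2-K1 and B2m stretches overlap no GENCODE exon.
H2-K1 element: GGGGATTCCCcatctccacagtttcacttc
H2-D1 element: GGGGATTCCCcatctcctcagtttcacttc
B2m element: catGAAACTGAAAatgGGAAAGTCCCtttg
H2-K1 and H2-D1 shared 29 of these 30 bases and carried the same κB letters, which begin at position -171 from the RefSeq start of H2-D1 and at -111 from the more upstream of the RefSeq starts of H2-K1. Tap1 and Psmb9 lie head to head on chromosome 17, with 225 bases between their RefSeq starts, and neither window held the response element core or the κB letters searched. Their GENCODE genes overlap on opposite strands, since Tap1 starts at 34187553 and Psmb9 reaches 34187764. A match is a description of letters and not of binding, and no factor binding was measured in these libraries.

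The antigen-presenting molecule itself, 2 heavy chains and β2-microglobulin, gave the highest levels of the set and the narrowest intervals. H2-K1, a classical heavy chain (chr17:33996017-34000347, minus strand, protein coding), was at 566, 563 and 620.0 CPM in the GSK-J4 libraries (583 ± 31.9, mean ± SD, n = 3) and at 535, 525 and 592 CPM in the LPS + GSK-J4 libraries (551 ± 35.7). The library numbered 3 was the highest of each group, and the groups overlapped. The log2-fold change was -0.08 (SE 0.11, edgeR adjusted p = 0.630), with a 95% interval of -0.31 to 0.14, or 0.809 to 1.10 times the GSK-J4 level.

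H2-D1, the other classical heavy chain (chr17:35262730-35267499, plus strand), was at 278, 263 and 261 CPM with GSK-J4 (267 ± 9.46, n = 3) and at 249, 250.3 and 266 CPM with LPS + GSK-J4 (255 ± 9.66). Its GSK-J4 replicate 1 was the highest value and LPS + GSK-J4 replicate 3 lay inside the GSK-J4 range. The log2-fold change was -0.07 (SE 0.11, edgeR adjusted p = 0.708), with an interval of 0.815 to 1.12 times. B2m (chr2:122147686-122153083, plus strand), the invariant light chain, was at 963, 1001 and 791 CPM with GSK-J4 (918 ± 112, n = 3) and at 906, 822 and 783 CPM with LPS + GSK-J4 (837 ± 62.8). The library numbered 3 was the lowest of each group, the reverse of H2-K1, and the groups overlapped. Its log2-fold change was -0.13 (SE 0.11, edgeR adjusted p = 0.443), with an interval of 0.770 to 1.08 times. For these 3 genes no interval reached above 1.12 times the GSK-J4 level. H2-K1 and H2-D1 are highly polymorphic between mouse stocks, and fragments of the ICR alleles were counted on the mm10 reference, which is of the C57BL/6J strain. Of the 101-base stretches of their transcripts, 0.905% of H2-K1 and 3.55% of H2-D1 also occur in transcripts of other genes, mainly of the H2-Q group, and 0% of B2m.

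**Figure D1:**
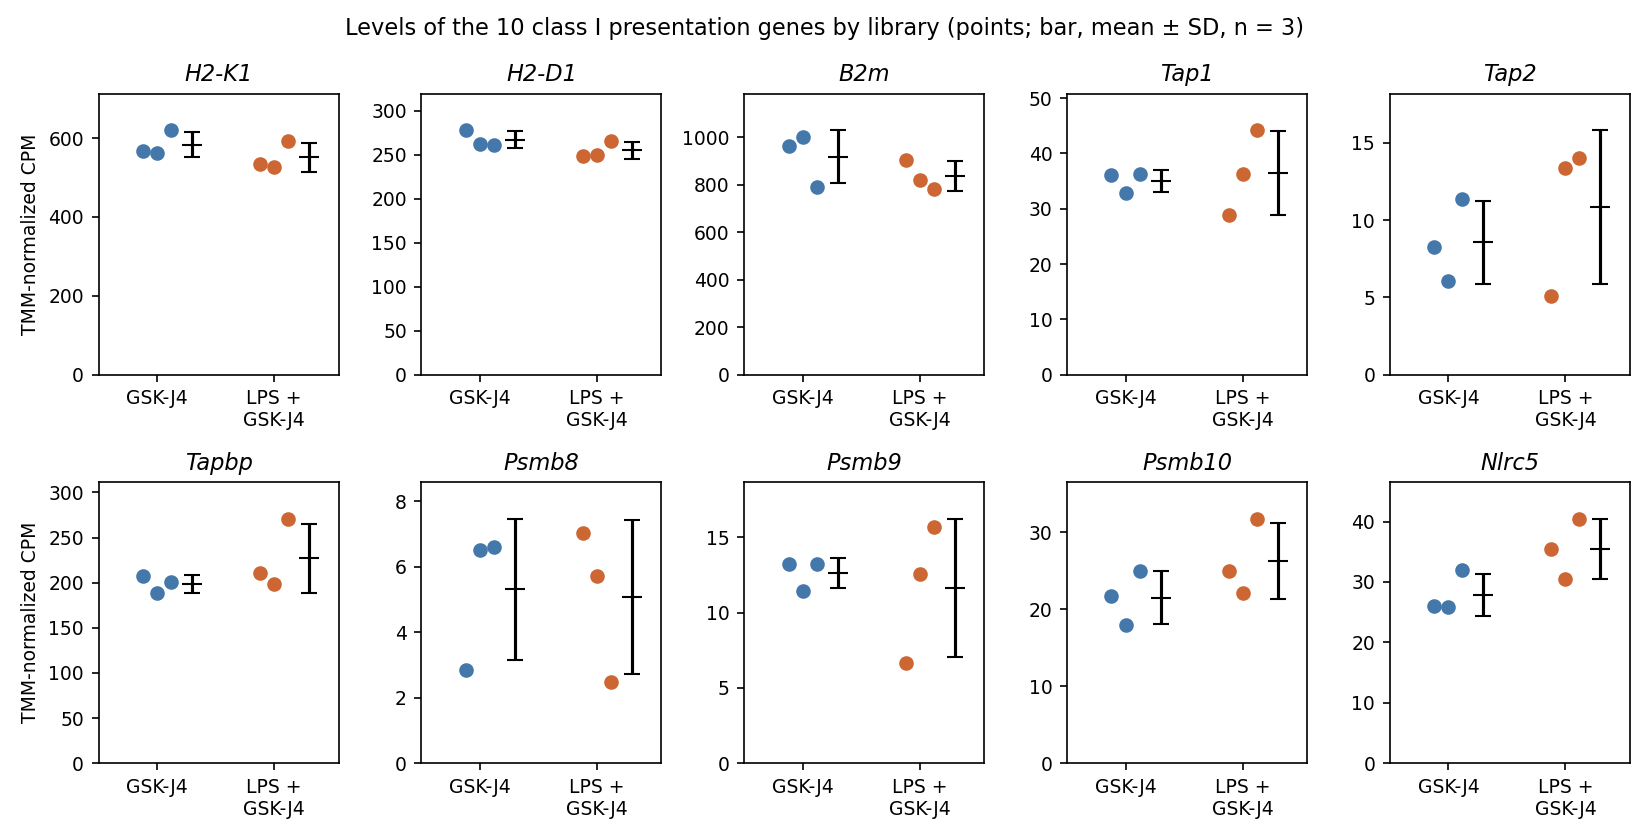
Level of each class I presentation gene in TMM-normalized CPM (vertical axis from 0, a scale per gene) in the 3 GSK-J4 libraries (blue) and the 3 LPS + GSK-J4 libraries (orange), in the order of their replicate numbers, with mean ± SD in black. The groups overlap for all 10 genes, and the spread within a group is widest relative to the mean for Tap2 and Psmb8.

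The transporter and its tapasin bridge did not pass the test either. Tap1, which encodes one chain of the TAP transporter (chr17:34187553-34197225, plus strand), was at 36.1, 32.8 and 36.3 CPM with GSK-J4 (35.1 ± 1.98, n = 3) and at 28.9, 36.3 and 44.2 CPM with LPS + GSK-J4 (36.4 ± 7.65). The LPS + GSK-J4 libraries held both the lowest and the highest value. The log2-fold change was 0.06 (SE 0.18, edgeR adjusted p = 0.859), with an interval of 0.803 to 1.35 times, and it turned to -0.10 without LPS + GSK-J4 replicate 3 and to -0.07 without both libraries numbered 3.

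Tap2, the partner chain (chr17:34203527-34216321, plus strand), rested on 35, 27 and 31 counts with GSK-J4 and 13, 35 and 34 counts with LPS + GSK-J4. These gave 8.26, 6.06 and 11.4 CPM (8.56 ± 2.67, n = 3) against 5.07, 13.4 and 14.0 CPM (10.8 ± 4.99). Replicate 1 of LPS + GSK-J4 was the lowest value of all and the other 2 of that group the highest. The log2-fold change of 0.37 (SE 0.35, edgeR adjusted p = 0.484) had an interval of 0.779 to 2.16 times, so a doubling is inside what these counts allow. It was 0.72 without LPS + GSK-J4 replicate 1 and 0.59 without GSK-J4 replicate 3, and 0.16, 0.19 and 0.16 without GSK-J4 replicate 2, LPS + GSK-J4 replicate 2 and LPS + GSK-J4 replicate 3, with no adjusted p below 0.104.

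Tapbp, which encodes tapasin (chr17:33915899-33929292, plus strand), was at 207, 188 and 201 CPM with GSK-J4 (199 ± 9.57, n = 3) and at 211, 199 and 271 CPM with LPS + GSK-J4 (227 ± 38.6). Replicate 3 of LPS + GSK-J4 stood above the other 5 libraries, which lay close together. The log2-fold change was 0.19 (SE 0.13, edgeR adjusted p = 0.318), with an interval of 0.945 to 1.38 times, and it was 0.06 without both libraries numbered 3. Tapbp overlaps Zbtb22 on its own strand and Gm19412 on the other.

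The inducible proteasome subunits included the gene with the fewest counts of the set. Psmb8 (chr17:34197721-34201454, plus strand), which replaces the constitutive subunit Psmb5, had 12, 29 and 18 counts with GSK-J4 and 18, 15 and 6 with LPS + GSK-J4. These were 2.83, 6.51 and 6.60 CPM (5.31 ± 2.15, n = 3) against 7.03, 5.72 and 2.48 CPM (5.08 ± 2.34). One library of each group was far below the other 2, and the groups overlapped over nearly their whole range. The log2-fold change of -0.03 (SE 0.42, edgeR adjusted p = 0.971) had an interval of 0.533 to 1.81 times. It turned to between 0.12 and 0.29 without GSK-J4 replicate 2, without GSK-J4 replicate 3 or without LPS + GSK-J4 replicate 3, and no direction can be given for this gene.

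Psmb9 (chr17:34181987-34187764, minus strand), the counterpart of Psmb6, was at 13.2, 11.4 and 13.2 CPM with GSK-J4 (12.6 ± 1.02, n = 3) and at 6.63, 12.6 and 15.7 CPM with LPS + GSK-J4 (11.6 ± 4.60). Replicate 1 of LPS + GSK-J4, with 17 counts, was the lowest of all and replicate 3 the highest. The log2-fold change of -0.12 (SE 0.28, edgeR adjusted p = 0.811) had an interval of 0.616 to 1.38 times and turned to 0.16 without that replicate 1. Psmb10 (chr8:105935735-105938444, minus strand), the counterpart of Psmb7, was at 21.7, 18.0 and 24.9 CPM with GSK-J4 (21.5 ± 3.49, n = 3) and at 24.98, 22.1 and 31.8 CPM with LPS + GSK-J4 (26.3 ± 4.97). The groups overlapped, since LPS + GSK-J4 replicate 2 lay below GSK-J4 replicate 3. Its log2-fold change was 0.30 (SE 0.20, edgeR adjusted p = 0.316), with an interval of 0.917 to 1.65 times.

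The ratio of inducible to constitutive subunit RNA can be read within each library, where no scaling enters. Such a ratio does not measure the exchange of the subunit proteins. Per 100 counts of Psmb5 there were 18.5, 70.7 and 39.1 counts of Psmb8 with GSK-J4 and 40.0, 31.3 and 11.3 with LPS + GSK-J4. Per 100 counts of Psmb6 there were 13.7, 12 and 12.7 counts of Psmb9 against 6.25, 11.8 and 12.2. Per 100 counts of Psmb7 there were 40.7, 30.8 and 44.4 counts of Psmb10 against 35.8, 24.4 and 53.1. The mean log2 ratio was lower by 0.62 for the pair with Psmb8 (SD 0.97 in each group), so it differed by less than the spread between libraries. It differed by -0.41 for the pair with Psmb9 (SD 0.10 and 0.54) and by -0.09 for the pair with Psmb10 (SD 0.28 and 0.56). All 3 ratios overlapped between the groups, and no test was run on them.

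Nlrc5, the coactivator of class I genes (chr8:94434356-94527272, plus strand), came closest to the test. It was at 26.0, 25.8 and 31.9 CPM with GSK-J4 (27.9 ± 3.47, n = 3) and at 35.5, 30.5 and 40.5 CPM with LPS + GSK-J4 (35.5 ± 4.97). The library numbered 3 was the highest of each group, and the only overlap was LPS + GSK-J4 replicate 2, which lay below GSK-J4 replicate 3. The log2-fold change was 0.36 (SE 0.18), with a 95% interval of -0.02 to 0.73, or 0.989 to 1.66 times, and the edgeR p was 0.0590 before and 0.161 after adjustment. Over 14 alternatives its log2-fold change stayed between 0.26 and 0.46 and its adjusted p between 0.0848 and 0.426. The interval spans 0, and its upper end is a rise smaller than the fold threshold.

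**Figure D2:**
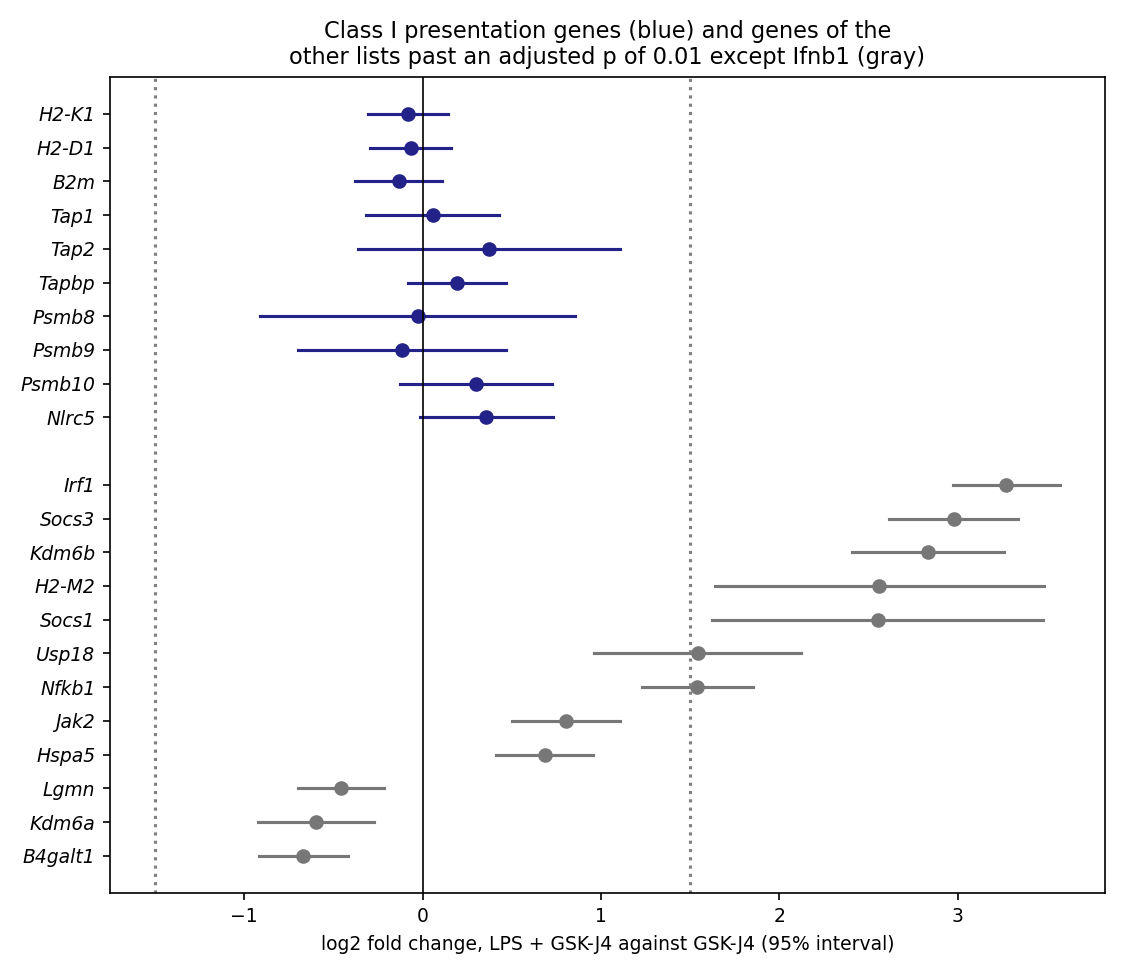
Fitted log2-fold change of LPS + GSK-J4 against GSK-J4 (horizontal axis) with its 95% interval for the 10 class I presentation genes (blue) and for the genes of the other lists past an adjusted p of 0.01, without Ifnb1 (gray), with dotted lines at -1.5 and 1.5. All 10 blue intervals cross 0 and end inside the dotted lines, while those of Irf1, Socs3, Kdm6b, H2-M2 and Socs1 lie beyond 1.5.

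Length is here the union of all GENCODE exons of a gene, such as 5.476 kb for Tap1, 3.66 kb for Psmb9 and 3.381 kb for Psmb8. Exons that the expressed transcripts lack lower a value, so the order of genes may depend on this choice. Per length, B2m was the most abundant member. Its mean was 1068 CPM per kb of exon with GSK-J4 and 973 with LPS + GSK-J4. It was followed by H2-K1 at 199 and 188, H2-D1 at 104 and 99.0 and Tapbp at 54.7 and 62.6 CPM per kb. Psmb10 stood at 12.6 and 15.4 and Tap1 at 6.40 and 6.65 CPM per kb. Each of these genes was above the next in all libraries of both groups. Below them Psmb9 (3.45 and 3.18), Nlrc5 (3.28 and 4.18), Tap2 (2.26 and 2.86) and Psmb8 (1.57 and 1.501 CPM per kb) did not separate: Psmb9 overlapped Nlrc5 and Tap2 overlapped Psmb8 in both groups, and Nlrc5 overlapped Tap2 with LPS + GSK-J4. The constitutive subunits were all above their inducible counterparts in mean CPM per kb, with Psmb6 at 52.6 and 60.8, Psmb7 at 16.3 and 21.5 and Psmb5 at 15.4 and 21.4. The order of the members was the same with and without LPS apart from the group of overlapping low genes.

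**Figure D3:**
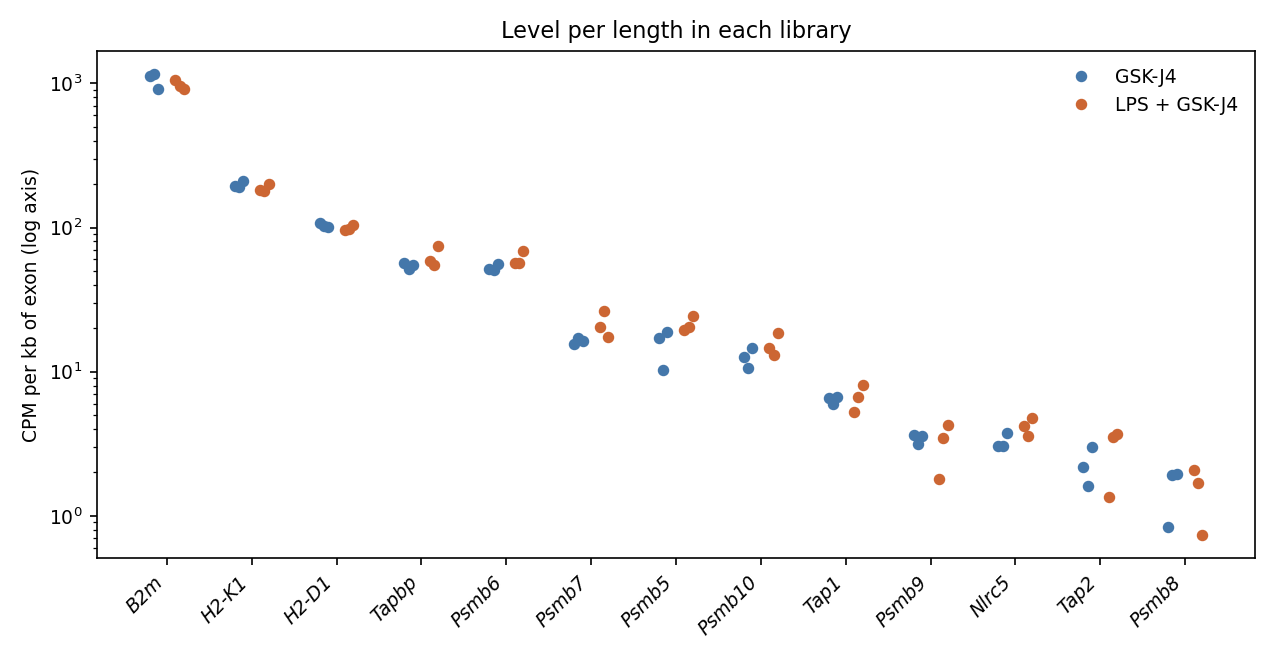
Level per length, in TMM-normalized CPM per kb of annotated exon (log axis), of the class I presentation genes and the constitutive subunits Psmb5, Psmb6 and Psmb7 in each GSK-J4 (blue) and LPS + GSK-J4 (orange) library. Mean levels span from 1068 (B2m) to 1.57 (Psmb8) CPM per kb with GSK-J4, and the order of the genes from B2m to Tap1 is the same in both groups.

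Among themselves the members did not vary as one block over the 6 libraries. The highest Pearson correlations of log2 CPM were those of Psmb10 with Nlrc5 (0.92), of the divergent neighbours Tap1 and Psmb9 (0.91) and of Tapbp with Psmb10 (0.89). The lowest was that of B2m with Tap2 (-0.81). The genes outside all lists whose log2 CPM was most like the mean of the members were Mlf2 (r = 0.99), Emc10 (0.99), Nod1 (0.98), Dpp9 (0.98) and Drap1 (0.98). None of these 5 was called, and all of the values describe the same 6 libraries, which share scaling and the groups. The members' summed level was 1997 to 2122 CPM with GSK-J4 and 1917 to 2061 CPM with LPS + GSK-J4, 2 overlapping ranges.

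Other class I heavy chains moved unevenly. Of 25 such genes 12 were tested and 1 was up-regulated, where 2.95% of all tested genes were, and their median log2-fold change was -0.07. H2-M2, a non-classical heavy chain, was at 3.54, 1.80 and 0.733 CPM with GSK-J4 and at 16.0, 16.0 and 6.61 CPM with LPS + GSK-J4, and rose by a log2-fold change of 2.56 (SE 0.43, edgeR adjusted p = 0.000418). Every LPS + GSK-J4 library was above every GSK-J4 library, and GSK-J4 replicate 3 held only 2 counts. None of the 101-base stretches of H2-M2 is shared with another gene. The class I-like chains Fcgrt, Mr1 and Hfe, chosen after their values were seen, missed the adjusted p with no overlap between groups. Of all tested genes, 18.4% likewise had every LPS + GSK-J4 library below every GSK-J4 library. Fcgrt, the neonatal Fc receptor, was at 38.9 against 25.4 CPM (log2-fold change -0.62, edgeR adjusted p = 0.0120). Mr1, the presenter of vitamin metabolites, was at 23.7 against 13.9 CPM (-0.77, 0.0179), and Hfe, a regulator of iron uptake, at 16.1 against 9.68 CPM (-0.72, 0.0309). Fcgrt passed the adjusted p under 5 alternatives, at 0.00837 without LPS + GSK-J4 replicate 3, 0.00394 without both libraries numbered 3, 0.00976 with unstranded counts, 0.00438 without a filter and 0.00165 with the replicate block. Mr1 passed at 0.00300 without a filter and 0.00339 with the replicate block.

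The H2-Q and H2-T genes, neighbours and relatives of the classical chains, did not pass the test, apart from H2-Q4 with the replicate block (log2-fold change 0.38, edgeR adjusted p = 0.00501). H2-Q4 was the most abundant by count, at 97.7 ± 16.9 against 127 ± 26.7 CPM (n = 3), with a log2-fold change of 0.39 and no block (edgeR adjusted p = 0.101). H2-T23, which encodes the Qa-1 chain, was at 35.8 ± 3.33 against 37.7 ± 1.89 CPM (0.07, 0.786). H2-Q1, H2-Q2, H2-Q10, H2-T10 and H2-T24 were all below 12 CPM in every library, with log2-fold changes between -0.26 and 0.33. H2-Q6, H2-Q7, H2-T9 and H2-T22 had no count in any library, and H2-L had 1, 1 and 0 counts with GSK-J4 and 0 with LPS + GSK-J4. H2-T3 had 0, 0 and 1 counts with GSK-J4 and 1, 0 and 0 with LPS + GSK-J4. Shared 101-base stretches made up 10.5% of H2-Q6, 11.8% of H2-Q7 and 8.56% of H2-T22, and 6.81% of H2-T10, which had 25 to 50 counts per library. A stretch was taken as shared only where all 101 bases were identical, so nearly identical sequence is not included in these shares. The annotation used for these stretches held no transcript of H2-T9 or H2-L. Levels of related genes are uncertain where they share sequence, and the part of sharing in the absent counts was not tested. H2-T3 and H2-T24 shared 0% of their stretches.

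**Figure D4:**
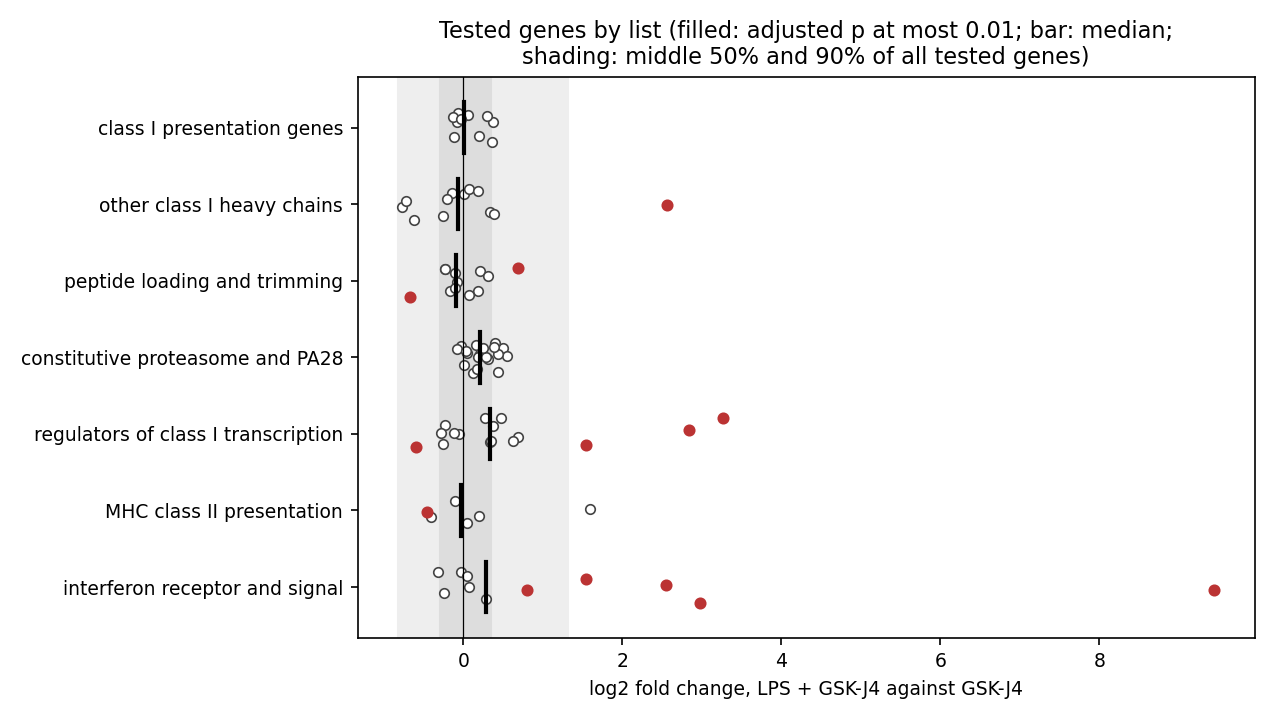
Fitted log2-fold change (horizontal axis) of every tested gene of the class I presentation set and 6 further lists, filled red at an adjusted p of at most 0.01, with the list median as a black bar and the middle 50% (-0.29 to 0.35) and 90% (-0.82 to 1.31) of all tested genes shaded. The 10 class I presentation genes lie between -0.13 and 0.37 with none filled. Ifnb1, the point farthest to the right, rests on 1 count with GSK-J4.

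Genes of peptide loading and trimming were all tested, 12 of 12, and none was called at the fold threshold. Their median log2-fold change was -0.09, with 1 higher and 1 lower past the adjusted p, where 8.42% and 5.46% of all tested genes were. Hspa5, the endoplasmic chaperone BiP, was at 194, 161 and 143 CPM against 265, 287 and 252 CPM and rose by a log2-fold change of 0.68 (SE 0.13, edgeR adjusted p = 0.000965), which was 0.0122 without LPS + GSK-J4 replicate 2. B4galt1, a galactosyltransferase of glycoproteins, was at 162, 169 and 179 CPM against 102, 106 and 112 CPM and fell by 0.67 on the log2 scale (SE 0.12, edgeR adjusted p = 0.000567). Neither gene overlapped between the groups. The chaperones and editors of the loading complex did not pass: calreticulin (Calr) had a log2-fold change of 0.21, calnexin (Canx) -0.16, the disulfide isomerase Pdia3 0.07, the tapasin relative Tapbpl 0.18 and the trimming peptidase Erap1 -0.23.

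Of the constitutive proteasome and PA28 genes, 0 of 19 passed the adjusted p, and 5 had an unadjusted p under 0.05 by edgeR. Of the 19, 17 had a higher fitted level with LPS + GSK-J4, and the median log2-fold change was 0.21, beside -0.00064 over all genes tested. For 8 of the 19 every LPS + GSK-J4 library was above every GSK-J4 library, where 19.8% of all tested genes had this. Psmb5 had a log2-fold change of 0.50 (edgeR adjusted p = 0.147), Psmb6 0.21 (0.265) and Psmb7 0.40 (0.0805). The PA28 regulators Psme1 and Psme2 had -0.08 and 0.17. Without LPS + GSK-J4 replicate 3, 2 genes of the list passed, Psmb7 at 0.52 (edgeR adjusted p = 0.00724) and Psma3 at 0.59 (0.00469). Both also passed without both libraries numbered 3 (0.00341 and 0.00464), and 4 genes of the list passed with the replicate block. The share of all tested genes past the adjusted p under these alternatives is not given here. With all 6 libraries and no block, 8.42% were higher past it. Psma3 was chosen after its values were seen.

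Regulators of class I transcription split into a few strong risers and many genes that missed the test. Of 17, 16 were tested and 3 were up-regulated, where 2.95% of all tested genes were. In addition 1 was lower past the adjusted p, where 5.46% of all tested genes were, and the median log2-fold change was 0.34. Irf1, a factor that binds interferon response elements in class I promoters, was at 54.5, 46.5 and 37.8 CPM against 471, 429 and 453 CPM, and rose by a log2-fold change of 3.27 (SE 0.14, edgeR adjusted p = 7.11e-11). Every LPS + GSK-J4 library was far above every GSK-J4 library. Nfkb1 was at 50.02, 46.5 and 54.3 CPM against 128, 134 and 176 CPM (log2-fold change 1.54, SE 0.15, edgeR adjusted p = 1.2e-06). Its groups were also separate, and the change fell just under the fold threshold without GSK-J4 replicate 2 (1.48) and without LPS + GSK-J4 replicate 3 (1.39), with DESeq2 (1.49), without a filter (1.49) and without both libraries numbered 3 (1.45), still past the adjusted p each time. Irf9, chosen after its values were seen, missed the adjusted p (log2-fold change 0.62, edgeR adjusted p = 0.0112). It passed without LPS + GSK-J4 replicate 3 (0.00848), without both libraries numbered 3 (0.00787) and with the replicate block (0.00198).

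Kdm6b, which encodes JMJD3, the target of the inhibitor given to both groups, was at 13.4, 13.0 and 21.999 CPM against 112, 92.3 and 133 CPM (log2-fold change 2.83, SE 0.20, edgeR adjusted p = 3.45e-08). Its groups did not overlap. Its relative Kdm6a, a demethylase of the same histone mark, was at 79.0, 93.2 and 69.3 CPM against 60.1, 54.6 and 45.4 CPM (-0.60, SE 0.15, edgeR adjusted p = 0.00994). It no longer passed the adjusted p without GSK-J4 replicate 1 (0.0278), GSK-J4 replicate 2 (0.0763), LPS + GSK-J4 replicate 2 (0.0417) or LPS + GSK-J4 replicate 3 (0.0135), with at least 10 counts in every library (0.0113) or with Rn45s, Mir6236 and Lars2 removed (0.0101). The class II transactivator Ciita had 1 count in 1 library and none in the other 5.

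The genes of the interferon receptor and signal included Ifnb1 and its feedback inhibitors. Of 12, 11 were tested and 4 were up-regulated, where 2.95% of all tested genes were. With 1 more, 5 were higher past the adjusted p, where 8.42% of all tested genes were, and the median log2-fold change was 0.28. Ifnb1, the cytokine interferon β, had 1, 0 and 0 counts with GSK-J4 and 250, 234 and 189 counts, or 97.6, 89.3 and 78.0 CPM, with LPS + GSK-J4 (edgeR adjusted p = 1.69e-11). It was thus near absent without LPS and present in all 3 libraries with it. Ifng, interferon γ, had no count in any library.

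Feedback inhibitors of cytokine signalling rose as well. Socs3 was at 9.91, 9.88 and 10.3 CPM against 73.0, 74.0 and 90.0 CPM (log2-fold change 2.98, SE 0.17, edgeR adjusted p = 2.75e-09), and Socs1 was at 1.18, 1.12 and 0.733 CPM against 6.24, 4.58 and 8.26 CPM (2.55, SE 0.44, 0.000457). The GSK-J4 values of Socs1 are 5, 5 and 2 counts, near the lower limit of 3 counts, so the size of its change is uncertain, and it was not tested with at least 10 counts required in every library. Usp18, an inhibitor of the type I interferon receptor, was at 7.79, 8.31 and 5.87 CPM against 14.4, 21.4 and 29.7 CPM (1.54, SE 0.27, 0.000585). The groups of these 3 genes did not overlap, and Usp18 fell under the fold threshold without GSK-J4 replicate 3 (1.43), without LPS + GSK-J4 replicate 3 (1.26), without both libraries numbered 3 (1.16), without a filter (1.49) and with the replicate block (1.49). Jak2, a kinase of the JAK family, was higher by 0.80 on the log2 scale (51.1 against 89.7 CPM, edgeR adjusted p = 0.000605). The receptor chains Ifnar1, Ifnar2, Ifngr1 and Ifngr2 had log2-fold changes of 0.07, -0.03, 0.28 and -0.32, none past the adjusted p.

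In MHC class II presentation, the other arm of antigen presentation, the class II chains were nearly without counts while lysosomal enzymes of the pathway were abundant. Of 13 genes 6 were tested and none was called, where 2.95% of all tested genes were called up and 0.809% down. The median log2-fold change was -0.03. The class II chains H2-Aa, H2-Ab1 and H2-Eb1 had 0 to 2 counts in each library. Cd74, the invariant chain, was at 1.89, 1.12 and 4.03 CPM against 4.68, 6.87 and 8.26 CPM (log2-fold change 1.60, edgeR adjusted p = 0.0143), and was called at 2.11 without GSK-J4 replicate 3 (0.00538), 1.93 without both libraries numbered 3, 1.54 without a filter and 1.57 with the replicate block. Ctss, the protease cathepsin S, chosen after its values were seen, was at 1091 ± 125 against 826 ± 127 CPM (n = 3) with no overlap (-0.40, edgeR adjusted p = 0.0307), and it passed without both libraries numbered 3 (0.000983), without a filter (0.00117) and with the replicate block (0.000107). Lgmn, a lysosomal protease, was lower at 483 ± 47.0 against 352 ± 24.04 CPM (n = 3, -0.46, edgeR adjusted p = 0.00779), and no longer past the adjusted p without GSK-J4 replicate 2 (0.0555) or 3 (0.0225) and without LPS + GSK-J4 replicate 1 (0.0336) or 2 (0.0481).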

How the data were processed

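The authors trimmed paired 101-cycle reads of ribosomal RNA-depleted, strand-specific libraries with Trimmomatic 0.33, aligned them to mm10 with STAR 2.5.1 and deposited raw counts per gene for each of the 6 libraries. The annotation used for counting is not given in the sources used here. The reverse-strand column, the larger of the stranded ones, was used. Groups and replicate numbers came from the titles. Counts were scaled by TMM and tested with edgeR 4.0.16 in R 4.3.3 (robust quasi-likelihood, filterByExpr with a minimum count of 10 and total of 15, no covariates). Adjusted p-values are over the 10133 genes tested, and a gene was called at the study's thresholds of 0.01 and 1.5. The study's tool, DESeq2 (1.42.0 here), was an alternative. With 3 against 3 libraries an exact permutation p cannot go below 0.1, so none is given. A level of 3 counts is 0.673 to 1.24 CPM, and CPM are not comparable between genes, for which CPM per kb of GENCODE exon was used. Intervals are unadjusted and cover the spread between these libraries.

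The members and lists were chosen with earlier results of these data known. The genes named were the members, up to 4 genes per list with the largest change past the adjusted p, genes set by role, H2-Q, H2-T and H2-L genes, the 5 most similar profiles and Ifnb1. Others are said to have been chosen after their values were seen, and Jak2 is of that kind. Ifnar1, Ifnar2, Ifngr1, Ifngr2, Ifng, H2-Aa, H2-Ab1 and H2-Eb1 were named outside these rules, as were the markers of cell types. No library pair agreed within sampling noise (chi-square per degree of freedom 2.12 to 12.5). Alternatives were unstranded counts, DESeq2 size factors, DESeq2, no filter, at least 10 counts in every library, looser thresholds, the replicate number as a block, removal of Rn45s, Mir6236 and Lars2, leaving out each library and, chosen after seeing the data, leaving out both libraries numbered 3. Promoter windows are from RefSeq (GRCm38.p6). Tables and figures were made with Python 3.11.15, pandas 2.3.3 and matplotlib 3.10.9. Results for some marker genes are not reported here.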

Additional observations from a re-analysis of the deposited data

Results flagged for a closer look

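The same-strand count column, which holds fragments on the opposite strand of each gene and enters no comparison above, held counts at Tapbp. It had 5, 4 and 3 counts with GSK-J4 and 10, 8 and 7 counts with LPS + GSK-J4, a mean of 3.28 CPM in the latter group and above the level in every GSK-J4 library. These were 12 of 2274 stranded counts at Tapbp with GSK-J4 (0.528%) and 25 of 1743 with LPS + GSK-J4 (1.43%), where over all genes the antisense share of a library was 0.966% to 1.38%. Gm19412 lies on that strand and overlaps Tapbp. The counts are few, and the difference between the groups was not tested.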

How the results depend on the processing

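Under all 15 alternatives 0 members were called in either direction and 0 passed the adjusted p. At an unadjusted p under 0.05 there were at most 1, except 2 without both libraries numbered 3. The smallest adjusted p of any member under an alternative was 0.0848, for Nlrc5. With at least 10 counts in every library, 9 members were tested, since Psmb8 was left out, and 176 genes were up-regulated in place of 299 and 5 genes of the other lists called in place of 8, with fewer genes tested. At an adjusted p of 0.05 and a log2-fold change of 1, 844 genes were up-regulated and 285 down-regulated, in place of 299 and 82. The members' median ranged from -0.022 to 0.18 when a library was left out, with 0.18 without LPS + GSK-J4 replicate 1, and the cause was not tested. Leaving out a library gave log2-fold changes from -0.10 to 0.20 for Tap1, 0.16 to 0.72 for Tap2, -0.36 to 0.29 for Psmb8 and -0.38 to 0.16 for Psmb9. Directions turned for Psmb8 (0.19 without GSK-J4 replicate 2, 0.12 without GSK-J4 replicate 3, 0.29 without LPS + GSK-J4 replicate 3 and 0.44 without both libraries numbered 3), for Psmb9 (0.16 without LPS + GSK-J4 replicate 1) and for Tap1 (-0.10 without LPS + GSK-J4 replicate 3 and -0.070 without both libraries numbered 3), and the other 7 members kept theirs. The median over all genes moved to 0.13 with DESeq2 and 0.12 without a filter, and that of the members to -0.04 in each. More genes of low counts were fitted in both, but the members were the same 10. H2-K1 was at -0.13 and -0.14 and Tapbp at 0.14 in each, in place of -0.08 and 0.19. The cause of these moves was not tested.

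The replicate numbers are shared by the groups, and the deviations of same-numbered libraries correlated at -0.01, 0.12 and 0.31. Not every pair was above 0.1 and not every library correlated best with its own number, so the numbers were not taken as pairs, although the libraries numbered 3 did deviate together. With the replicate block, 0 members passed, 1 had an unadjusted p under 0.05 and the members' median was 0.02. Of all genes 306 were up-regulated and 90 down-regulated, and 8 genes of the other lists were called. Of the 19 constitutive proteasome and PA28 genes 4 passed the adjusted p, all higher, in place of 0. H2-Q4 and Cd74 also passed, higher, as did Mr1, Fcgrt and Ctss, lower. Of the regulators of class I transcription 5 were higher past it, in place of 3. The share of all tested genes past the adjusted p with the block is not given here, so these counts have no background. Depth limited Psmb8, Tap2 and Psmb9, with 6 to 56 counts per library.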
